A study of Homo sapiens with 4 samples.

Results

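H3K27me3, the trimethylation of lysine 27 on histone H3, was listed as 239794 separate rows on the autosomes of retinoic acid-treated SH-SY5Y cells. Of these, 606 rows were at least 3 kb wide as single, unjoined entries, and they are described here. They made up 0.253% of the autosomal rows and 3.69% of the bases in them, 3.04 of 82.3 Mb. They were chosen on the width of the row alone. Width, and the score of the peak caller, which follows width, are therefore given as a description.

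H3K27me3 is written by the Polycomb repressive complex that carries EZH2 and is read by a further Polycomb complex that compacts chromatin. The mark tends to spread over broad domains at silent genes of other lineages, among them many developmental regulators. CHD5 is a chromodomain helicase of the nucleosome remodelling and deacetylase type, found mainly in neurons, and its gene lies in a part of chromosome 1 that is often lost in neuroblastoma.

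The series holds 4 libraries, 1 for each group: a streptavidin pull-down from cells expressing FBio-CHD5, the same from cells expressing FBio-Ctrl, an H3K27me3 precipitation with a Millipore antibody, and input DNA. H3K27me3 and input came from FBio-CHD5 expressing cells, so the mark was measured in the presence of the added construct. All cells were SH-SY5Y, a human neuroblastoma line that takes on neuron-like features in retinoic acid, and all received retinoic acid at 10 uM over 8 days. Region lists of the H3K27me3 and FBio-CHD5 libraries were used. Control pull-down and input libraries were not analysed here. Coordinates are on hg19. The line is known to carry extra copies of chromosome 7 and of parts of chromosomes 1, 2 and 17, and copy number was not measured here. With 1 library per group no value has a replicate error and no difference was tested. Wilson 95% intervals cover counting error only and treat rows as independent, although neighbouring rows share their surroundings. No read count is attached to the regions, so depth is unknown.

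The wide rows were gathered on few chromosomes. Chromosome 7 held 234 of them and chromosome 1 held 108, together 56.4% of all, although these chromosomes held 15.5% of the autosomal rows. Per Mb of chromosome, there were 1.47 wide rows on chromosome 7, 0.433 on chromosome 1 and 0.370 on chromosome 17, against 0.210 over all autosomes. As a share of its own rows, chromosome 7 had 1.16% and chromosome 1 had 0.634%, followed by chromosome 22 with 0.436% and chromosome 17 with 0.331%. Without chromosomes 7 and 1, the share was 0.130%. The median autosome held 13.5 wide rows. Chromosomes 3 and 13 held 4 each, chromosome 18 held 2, chromosomes 12 and 20 held 1 each, and chromosome 11 held none among its 5964 rows.

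**Figure D1:**
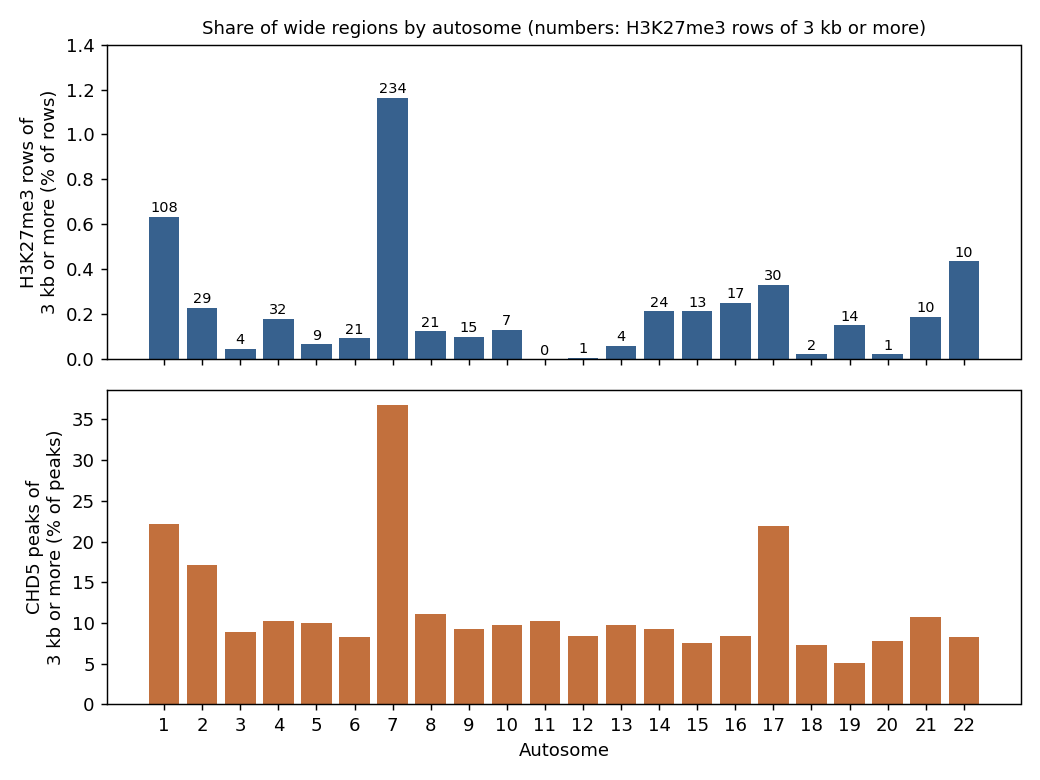
Share of regions of 3 kb or more on each autosome, as a percentage of the H3K27me3 rows (top, with the number of wide rows above each bar) and of the CHD5 peaks (bottom). Chromosome 7 is highest in both panels, at 1.16% of rows and 36.8% of peaks.

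CHD5 peaks were also wide on chromosomes 7, 1 and 17. Of the CHD5 peaks on chromosome 7, 36.8% spanned 3 kb or more, against 22.2% on chromosome 1, 21.9% on chromosome 17, 17.1% on chromosome 2 and 13.8% over all autosomes. Chromosome 22 differed, with 8.22% wide CHD5 peaks beside its high share of wide H3K27me3 rows. Chromosome 2 differed the other way, with 0.229% wide H3K27me3 rows, below the 0.253% over all autosomes. Across the 22 autosomes the 2 shares had a Spearman rho of 0.406, as a description of lists called from the same cells. The 99th percentile of H3K27me3 row width was 3167 bp on chromosome 7 and 2539 bp on chromosome 1, but 1183 bp on chromosome 13 and 1081 bp on chromosome 3. What the width of CHD5 peaks and that of H3K27me3 rows share was not tested.

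Within chromosomes the wide rows lay unevenly too. Each autosome was divided at its longest stretch without a region of either list, which measured 3.00 to 21.1 Mb and began at the first base of chromosomes 13, 14, 15, 21 and 22. On chromosome 1 this stretch was chr1:121473850-142567232. Of the 108 wide rows, 99 lay after it, making 0.949% of the rows there, and 9 lay before it, making 0.136%. The median CHD5 peak was 2469 bp wide after it and 1511 bp wide before it. On chromosome 17, 25 wide rows lay after the stretch, 0.520% of rows, and 5 before it, 0.118%, with median CHD5 widths of 2023 and 1535 bp. On chromosome 2 the order was turned, with 22 wide rows before the stretch, 0.526%, and 7 after it, 0.0827%, and with median CHD5 widths of 2105 and 1528 bp. Chromosome 7 was high on both sides, with 60 wide rows before, 0.617%, and 174 after, 1.68%, and median CHD5 widths of 2403 and 2637 bp. Chromosome 4 held 25 wide rows before its stretch and 7 after it, with median CHD5 widths of 1500 and 1602 bp, so there the CHD5 peaks were not wider on the side rich in wide rows.

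Only 162 windows of 1 Mb held a wide row, and the 10 fullest held 192 of the 606. The fullest was chr7:155000001-156000000, with 38 wide rows among 388 rows, and the window after it, from 156000001, held 19. Window chr7:61000001-62000000 held 20 among only 88 rows. It begins inside the longest empty stretch of chromosome 7, which ended at 61060952. Windows with 15 to 19 wide rows lay on chromosome 7 from 27000001, 143000001 and 149000001, chromosome 17 from 46000001, chromosome 1 from 145000001, chromosome 4 from 9000001 and chromosome 8 from 7000001. Many rows in a window did not mean wide ones. The window with the most rows, chr16:86000001-87000000, had 1023 rows of median width 229 bp and 0 wide rows, and the second, chromosome 13 from 112000001, had 943 rows and 0. Among the 10 windows with the most rows there were 19 wide rows, 15 of them at chr8:7000001-8000000.

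Most wide rows were only somewhat wider than the limit. Their median width was 3971 bp, with quartiles of 3374 and 5186 bp, where other autosomal rows had a median of 240 bp. From 3 to 4 kb there were 313, from 4 to 5 kb 125, from 5 to 10 kb 136 and at 10 kb or more 32. Those 32 held 17.6% of the bases of all wide rows. Nearest inside the limit were rows of 3001 bp at chr7:27143462-27146462, 3003 bp at chr18:76746405-76749407, and 3004 bp at chr1:165094916-165097919. Nearest outside it were rows of 2999 bp at chr14:20049276-20052274, and of 2996 and 2993 bp at chr7:155872976-155875971 and chr7:50813784-50816776.

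The widest row of all was chr19:50594111-50642990. It spanned 48.9 kb, took up 98.9% of its domain and scored 600.2. The second, 29.1 kb at chr1:161411250-161440372, scored 558. A row of 26.7 kb at chr5:49415030-49441694 was the third, with a score of 50.2, the lowest of all 606. It lay 0.0227 Mb from the longest empty stretch of its chromosome. None of these 3 rows touched a CHD5 peak, and the nearest peaks were 160, 40.2 and 521 kb away.

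The fourth to the ninth widest measured 17960 to 25018 bp. They lay at chr19:48433979-48458996 and chr19:24611940-24630463, chr6:161033208-161054954, chr8:86557190-86576449, and chr7:155252996-155271539 and chr7:156803438-156821397. Except for chr19:24611940-24630463, which scored 324, all of them had the score of 3100. Chromosome 2 held a pair of neighbours of 17.9 kb each, chr2:91879521-91897441 and chr2:91898864-91916720, with scores of 3100 and 238. Chromosome 1 held 3 in one domain, chr1:148859896-148877340, chr1:148879513-148896726 and chr1:148908525-148924530, of 16.0 to 17.4 kb, the first scoring 95.5 and the others 3100.

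The remaining 6 of the 20 widest measured 12.5 to 15.0 kb. On chromosome 7 they were the rows chr7:61123498-61138496, chr7:61138507-61152082 and chr7:155207587-155222049. The others lay at chr19:8864025-8879063, chr1:145218496-145231114 and chr16:33040541-33053002. By chromosome, 5 of the 20 widest were on chromosome 7, 5 on chromosome 1 and 4 on chromosome 19, although chromosome 19 held only 14 wide rows in all. None of the 20 touched CHD5, and a count of 0 of 20 allows a share of up to 15.0%. Of the 20, 8 lay within 5 Mb of the longest empty stretch of their chromosome, where 4.43% of all autosomal CHD5 peaks lay. Whether this place bears on the missing overlap was not tested.

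The score that the authors' peak caller gave each row rose with width in the list as a whole, with a Spearman rho of 0.855 across the 239794 rows, but was less tied to it among the wide rows, with 0.447 across 606. The median score of wide rows was 2817 and that of other rows 85.3. A single value, 3100, was shared by 246 wide rows, or 40.6%, and by 44 other rows. Between 5 and 10 kb, 86.0% of the rows had this score, against 18.5% between 3 and 4 kb. Such a shared value hides any difference among the rows that carry it.

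The 10 highest scores, from 3169 to 3219, belonged to rows of 3152 to 5001 bp. The scale of the score is not stated, so whether these rows rank above the 246 that share 3100 is not known. The highest score lay at chr10:135437738-135441583, at 0.0822 Mb from the end of the chromosome. Next came chr6:27512292-27515514, chr19:56272857-56276480, chr14:61116331-61120148 and chr15:23582766-23585917. Chromosome 7 held 3 of the 10, chr7:155935476-155939015, chr7:153219099-153223964 and chr7:27229056-27232276, and the other 2 lay at chr1:149360835-149364629 and chr22:16114135-16119135. No CHD5 peak overlapped these 10 rows, a count that allows a share of up to 30.0%. The row on chromosome 7 from 27229056 lay 0.395 kb from one.

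Low scores were few among the wide rows. In all, 24 wide rows scored below 1000 and 11 below 500. Of the 32 rows of 10 kb or more, 8 scored below 1000 (Wilson 95% interval 13.3% to 42.1%), against 2 of 136, or 1.47% (0.404% to 5.20%), of those from 5 to 10 kb. Of the 11 lowest, 9 lay within 5 Mb of the longest empty stretch of their chromosome. The rows chosen for their low scores after values were seen include chr8:43830262-43834075, which scored 107 and lay directly beside that stretch, and chr8:46852028-46856553 on its other side, which scored 179. Such a stretch is bounded by listed regions, so that some region lies directly beside it follows from its definition. None of the 24 rows below 1000 touched CHD5, a count that allows a share of up to 12.5%.

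**Figure D2:**
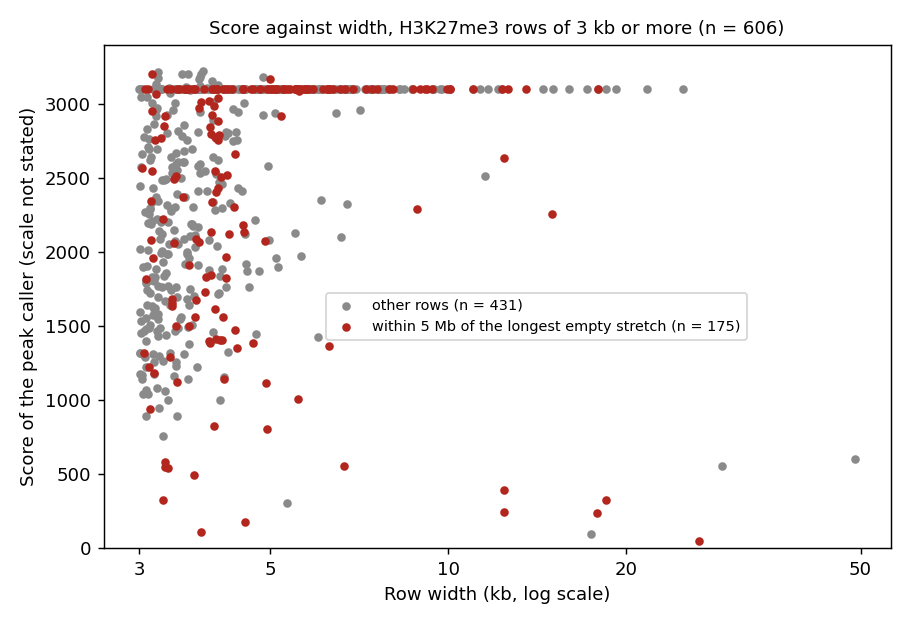
Score of the peak caller against row width (kb, log scale) for the 606 wide rows, 1 point per row, with the 175 rows within 5 Mb of the longest empty stretch in red. A line of 246 points stands at 3100, and 8 of the 32 rows of 10 kb or more lie below 1000.

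Wide rows were more often close to the longest empty stretch than other H3K27me3 rows were. This landmark was chosen after the data were seen, and it was not matched to centromeres or gaps in the assembly. Within 5 Mb of it lay 175 of the 606 wide rows, or 28.9% (25.4% to 32.6%), against 13.6% of all autosomal rows, 4.43% of CHD5 peaks and 6.77% of the sequence. Within 2 Mb the shares were 18.8% of wide rows, 6.21% of all rows, 1.20% of CHD5 peaks and 2.71% of the sequence. By width, 21.7% of rows from 3 to 4 kb, 37.6% from 4 to 5 kb and 35.7% of 5 kb or more lay within 5 Mb. Narrower rows had 12.4% under 250 bp, 21.0% from 1 to 2 kb and 26.7% from 2 to 3 kb, so the share did not step up at the 3 kb limit.

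On some chromosomes nearly all wide rows were of this kind. Chromosome 22 had 10 of 10 within 5 Mb of the stretch, chromosome 15 had 12 of 13, chromosome 14 had 21 of 24 and chromosome 21 had 9 of 10. On chromosome 16 it was all 13 that lay before the stretch, and on chromosome 2 17 of the 22 before it. On chromosomes 17 and 7 most wide rows lay elsewhere, with 2 of 30 and 27 of 234 within 5 Mb, and chromosome 13 had 0 of 4. The share of all rows of each chromosome within 5 Mb is not given here. Enrichment on a single chromosome can therefore not be read from these counts. The wide rows near the stretch had a median width of 4151 bp and the others 3770 bp, while 75 and 171 of them shared the score of 3100.

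Rows were joined into domains over gaps of up to 3 kb to see what surrounded each wide row. Wide rows were parts of larger domains and seldom made up a domain alone. The 606 rows fell into 272 of the 33793 autosomal domains, or 0.805%. These 272 domains had a median width of 45.4 kb and a median of 39 rows, where the other domains had a median width of 1.75 kb. A domain with a wide row is at least 3 kb wide by the rule, so these widths are a description. Of the wide rows, 412 lay in domains of at least 50 kb, or 68.0%, against 16.2% of all rows. Rows just under the limit were also often in such domains, with 53.2% of those from 2 to 3 kb and 63.3% of those from 3 to 4 kb, and a row's own width counts towards that of its domain. Only 1 was the sole row of its domain, at chr8:43830262-43834075.

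The wider the domain, the more often it held a wide row. Of domains from 3 to 20 kb, 45 of 11333 did, or 0.397%. From 20 to 50 kb it was 102 of 1631, or 6.25% (5.18% to 7.53%), from 50 to 100 kb 84 of 334, or 25.1% (20.8% to 30.1%), and at 100 kb or more 41 of 70, or 58.6% (46.9% to 69.4%). Thus 29 of these 70 held none. A wider domain has room for more rows, and a wide row adds to the width of its domain, so a rise is partly set by construction. Rows covered a median of 74.3% of the width in the 41 domains of 100 kb or more with a wide row and 54.3% in the 29 without. From 20 to 50 kb the medians were 76.7% and 43.6%. The wide row itself adds to the first of each pair.

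A wide row took up a median of 6.15% of its domain, with quartiles of 3.45% and 11.7%, and 14 rows took up more than 50%. Inside the domain, wide rows had a central midpoint more often than narrower rows did. The midpoint of wide rows fell between 33.3% and 66.7% of the domain's width in 258 of 606 cases, or 42.6% (38.7% to 46.5%). The same held for 31.6% (30.9% to 32.4%) of the 14329 narrower rows of the same domains. A wide row cannot have its midpoint at the very edge, so part of this difference is set by construction. Among the 249 wide rows that took up less than 5% of their domain, the share was 39.4% (33.5% to 45.5%), against 33.1% (32.1% to 34.1%) of the narrower rows there. These intervals overlap. Of the 605 wide rows in domains of more than 1 row, 17 were the first or last row, or 2.81% (1.76% to 4.45%), as were 3.66% of the narrower rows.

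**Figure D3:**
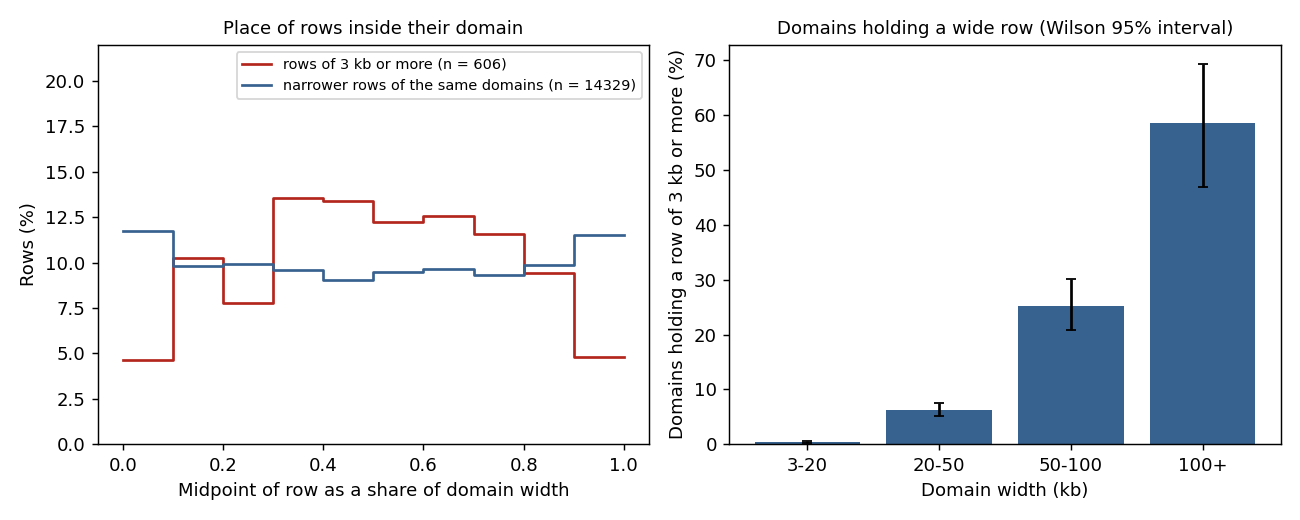
Left, place of the row's midpoint along its domain (0 and 1 are the domain's ends) for 606 wide and 14329 narrower rows of the same 272 domains, as a percentage of rows in 10 equal parts of the width. Right, percentage of domains that hold a wide row by domain width, with Wilson 95% intervals, rising from 0.397% to 58.6%.

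Most of these domains held 1 wide row, namely 158 of 272, while 49 held 2, 48 held 3 to 5 and 17 held 6 or more. Those 17 contained 168 of the 606 wide rows. The domain with the most, 20, lay at chr7:61096778-61247986. It spanned 151 kb, and wide rows made up 85.7% of its width. The longest empty stretch of chromosome 7, chr7:58009910-61060952, ended shortly before this domain. Chromosome 7 also held the next 4. The domains chr7:143869139-144082977, chr7:149628944-149924212 and chr7:155162094-155333670 had 15 each, and chr7:27087073-27254910 had 14. Wide rows made up 63.2% of the domain from 155162094 but 25.9% of that from 149628944, which is wider.

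Further down, 9 wide rows each were found at chr1:145097032-145245345 and chr1:148755082-148929717, and at chr14:19972847-20191999. Domains chr1:207691451-207866235 and chr4:9324644-9371703 had 8 each. The last of these was the narrowest of the 10, at 47.1 kb, and 86.4% of it lay in wide rows. CHD5 peaks were found in 4 of the 10: 4 peaks in the domain from 155162094, 3 in that from 149628944, 2 in that from 27087073 and 2 on chromosome 1 from 148755082. Of all 272 domains with a wide row, 52 overlapped a CHD5 peak, or 19.1% (14.9% to 24.2%). Wider domains offer more sequence for a peak to meet.

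The breaks that bound a wide row were often very short. The gap to an adjoining row had a median of 53.5 bp for wide rows and 359 bp for other rows. The nearer of the 2 gaps was at most 10 bp for 202 of 606 wide rows, or 33.3%, against 8.50% of other rows, and at most 50 bp for 433, or 71.5%, against 26.8%. The rows of 15.0 and 13.6 kb on chromosome 7 from 61123498 were 10 bp apart. Another wide row was the direct neighbour of 136 wide rows, or 22.4%. Where rows were joined over gaps of up to 50 bp before the width rule was applied, stretches of 3 kb or more numbered 1321, of which 524 contained a wide row. The widest was then at chr7:61108270-61177052, 68.8 kb made of 12 rows, close to the longest empty stretch of chromosome 7. Chromosome 7 held 432 and chromosome 1 held 224 of the joined stretches. Joining over such short breaks thus more than doubled the count and left chromosomes 7 and 1 first.

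Within 5 Mb of chromosome ends wide rows were more frequent than all rows over the autosomes together, but less frequent on the autosomes other than chromosome 7. Within 2 Mb the shares were 4.62% and 4.42%, a difference of 0.197 percentage points. The midpoint lay within 5 Mb of an end for 95 of 606 wide rows, or 15.7% (13.0% to 18.8%). The same held for 11.5% of all autosomal rows, 8.93% of CHD5 peaks and 7.64% of the sequence. By width it held for 18.5% of wide rows from 3 to 4 kb, 8.00% from 4 to 5 kb and 16.1% at 5 kb or more. Chromosome 7 supplied 70 of the 95, with 63 at its far end and 7 at its start. That is 29.9% (24.4% to 36.1%) of its wide rows against 5.75% of all its rows. On the other autosomes, 25 of 372 wide rows lay that near an end, or 6.72% (4.59% to 9.73%), below the 12.0% of all rows there.

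The 25 rows were spread over many ends, with at most 4 at any of them. The far end of chromosome 4 had 4 and the start of chromosome 6 had 3. Far ends of chromosomes 1, 3, 10, 16, 18 and 19 and the starts of chromosomes 4 and 17 had 2 each, and the starts of chromosomes 8 and 9 had 1 each. Several of these ends were rich in narrower rows, with 2021 rows in the last 5 Mb of chromosome 18 and 1794 in that of chromosome 19, while the far end of chromosome 7 had 812. The distance from an end was measured to the highest region end on the chromosome in either list.

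**Figure D4:**
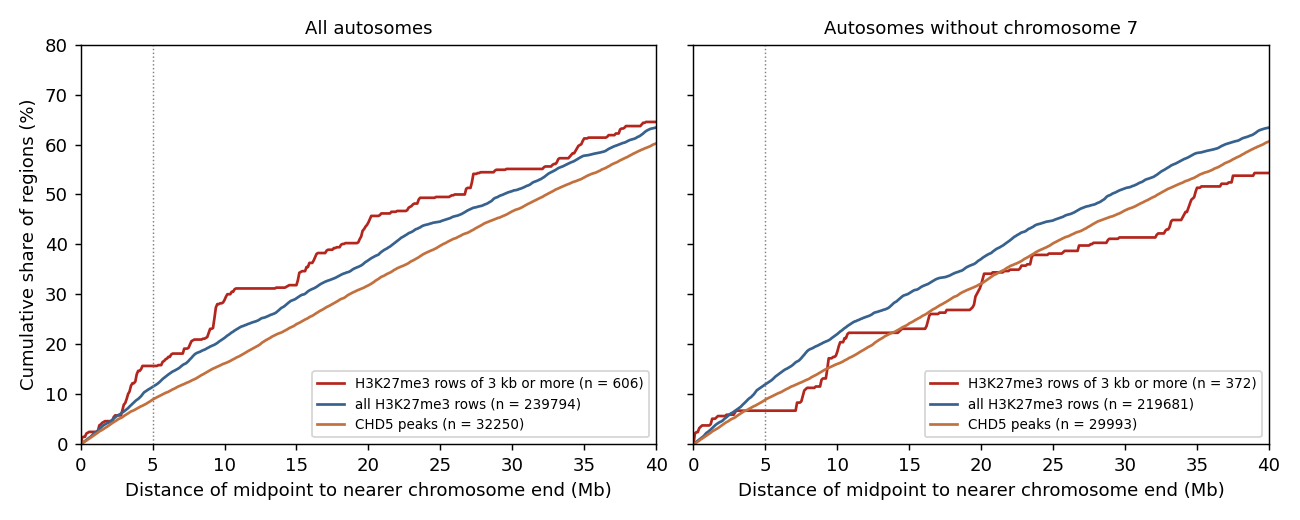
Cumulative percentage of regions within a given distance (Mb) of the nearer chromosome end, for wide rows, all H3K27me3 rows and CHD5 peaks, on all autosomes (left) and without chromosome 7 (right), with a dotted line at 5 Mb. The line of wide rows lies above that of all rows on the left, at 15.7% against 11.5%, and below it on the right, at 6.72% against 12.0%.

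CHD5 peaks touched few wide rows, but a larger share of them than of narrower ones. An overlap of at least 1 bp was found for 30 of 606 wide rows, or 4.95% (3.49% to 6.98%), where 0.525% of all autosomal rows had one. The share rose with width over the narrower classes, from 0.348% (0.317% to 0.382%) under 250 bp to 0.815% (0.714% to 0.931%) between 500 and 1000 bp and 3.79% (2.82% to 5.08%) between 2 and 3 kb. Above 3 kb it was 4.15% (2.44% to 6.98%) between 3 and 4 kb, 6.40% (3.28% to 12.1%) between 4 and 5 kb and 5.36% (2.84% to 9.87%) at 5 kb or more. These last 3 intervals overlap one another and that of 2 to 3 kb, so no further rise could be seen at these numbers. At 10 kb or more, 1 of 32 rows was touched, or 3.13% (0.554% to 15.7%).

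A wide row offers more bases for a peak to meet, so the share of bases was examined as well. Of the bases in wide rows, 1.80% lay inside a CHD5 peak, or 54.6 kb, against 0.618% in other rows and 2.23% of the autosomal sequence. By width this share rose from 0.320% under 250 bp to 2.10% between 2 and 3 kb, then was 1.57%, 3.76% and 1.21% in the 3 wider classes. Those 3 values rest on 13, 8 and 9 rows with CHD5, so their order rests on few rows. Without chromosomes 7 and 1, 12 of 264 wide rows were touched, or 4.55% (2.62% to 7.78%), against 0.412% of all rows. Chromosomes 17 and 2 held 6 of those 12 and also had wide CHD5 peaks. With these left out too, 6 of 205 wide rows were touched, or 2.93% (1.35% to 6.24%), against 0.305% of all rows. Of the bases of these wide rows, 0.914% lay inside CHD5. No base share of other rows or of the sequence was computed without chromosomes 7, 1, 17 and 2, so 0.914% has no matched value.

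**Figure D5:**
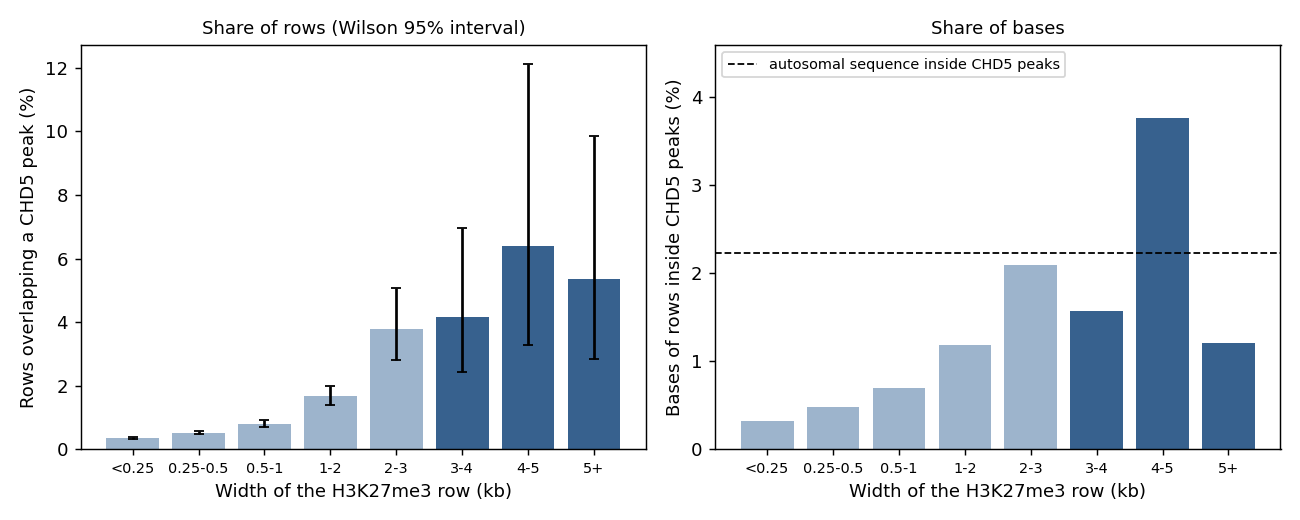
Left, percentage of H3K27me3 rows that overlap a CHD5 peak by width class (kb), with Wilson 95% intervals, and right, percentage of the bases of these rows inside CHD5 peaks, with a dashed line at the 2.23% of autosomal sequence inside CHD5 peaks. Dark bars are the classes of 3 kb or more, where the shares of rows are 4.15%, 6.40% and 5.36%.

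By chromosome, CHD5 touched 11 of 234 wide rows on chromosome 7, 7 of 108 on chromosome 1 and 4 of 30 on chromosome 17. Chromosome 2 had 2, and chromosomes 3, 4, 5, 6, 9 and 18 had 1 each. On chromosome 7 this was 4.70% (2.64% to 8.22%) of wide and 1.04% of other rows, and on chromosome 17 13.3% (5.31% to 29.7%) and 1.63%. Chromosomes 14, 8, 16 and 19, with 24, 21, 17 and 14 wide rows, had none that was touched, which allows shares of up to 12.5%, 14.3%, 17.6% and 21.4%.

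CHD5 met wide rows of small domains more often than those of large ones. In domains under 20 kb 8 of 49 wide rows were touched, or 16.3% (8.51% to 29.0%), from 20 to 50 kb 7 of 145, or 4.83% (2.36% to 9.63%), and at 50 kb or more 15 of 412, or 3.64% (2.22% to 5.92%). Rows of 1 to 3 kb had the corresponding shares of 4.10%, 1.21% and 1.35%. The intervals for wide rows in domains under 20 kb and from 20 to 50 kb overlap. Apart from chr6:123107103-123110148, the touched wide rows in domains under 20 kb lay on chromosomes 1, 7 and 17, where CHD5 peaks were wide. Close to the longest empty stretch, 4 of 175 wide rows were touched, or 2.29% (0.892% to 5.73%), and elsewhere 26 of 431, or 6.03% (4.15% to 8.69%).

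The 30 wide rows were touched by 33 CHD5 peaks, 3 of the rows by 2 peaks each. The median score of these peaks was 89.7, below the 108 of the 651 peaks that met narrower rows only and the 118 of all autosomal peaks, while their median width of 1899 bp was above the 1652 bp of all autosomal peaks. CHD5 peaks with a score at or above the median of their list touched 8 wide rows, or 1.32% (0.670% to 2.58%), and 0.257% of all autosomal rows. The peaks covered a median of 31.2% of the row they met. In 10 cases the whole peak lay inside the row, and 4 rows lay wholly inside a peak.

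The rows wholly inside a peak were found on 4 chromosomes. That at chr17:1211292-1215321 scored 3100 and lay in a peak chr17:1211117-1215370 with a score of 1169, the highest of the 33. That at chr3:197826600-197831326 lay 0.0678 Mb from the chromosome's end, in a peak of 7630 bp that scored 72.7. The others were at chr7:65095430-65099782, in a peak that scored 73.6, and at chr1:149220757-149223856, in a peak that scored 236. Their own scores were 1445, 2663 and 1038.

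The other 6 of the 10 rows with the most shared bases were touched in part. They include chr1:144326405-144332144, with 4213 bp inside CHD5, and its neighbour chr1:144336199-144340168, with 2570 bp inside 2 peaks. The row at chr7:155163616-155174923, of 11.3 kb, was the only touched row of 10 kb or more, and a whole peak of 3402 bp lay inside it. On chromosome 18, 2504 bp of the row chr18:76774210-76777471 lay inside 2 peaks. The row at chr1:197881973-197886717 shared 2470 bp and that at chr17:46223762-46231080 shared 2371 bp, all of its peak. The H3K27me3 score of 3100 was held by 6 of these 10 rows, a value shared by 40.6% of all wide rows. The rest of these rows scored from 1038 to 2663. Among the CHD5 peaks on the 10 rows, only chr17:1211117-1215370 scored above 236, where all autosomal CHD5 peaks had a median of 118. The scale of the score is not stated, so H3K27me3 and CHD5 scores cannot be compared with each other.

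The nearest CHD5 peak lay a median of 100.6 kb from wide rows, with quartiles of 29.9 and 293 kb, and 189 kb from other rows. Rows from 2 to 3 kb had a median of 101.5 kb. The order turned near the longest empty stretch, where the median was 268 kb for the 175 wide rows and 199.9 kb for narrower ones. Elsewhere it was 83.1 kb for the 431 wide rows and 187 kb for narrower ones. The stretch holds no CHD5 peak by its definition, which lengthens distances for rows beside it. Within 50 kb of a CHD5 peak were 33.3% of wide rows, 31.9% of rows from 2 to 3 kb and 16.3% of rows under 250 bp. In the sequence up to 5 kb on either side of wide rows, 1.74% of bases lay inside CHD5 peaks, close to the 1.80% inside the rows. From 5 to 20 kb it was 1.42%, from 20 to 50 kb 1.43% and from 50 to 100 kb 1.85%. Around rows of 1 to 3 kb these shares were 1.09%, 0.889%, 1.09% and 1.34%. All of them lie below the 2.23% of the autosomal sequence. Flanks of neighbouring rows overlap, so they are not separate measurements.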

How the data were processed

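Chromatin immunoprecipitation libraries of SH-SY5Y cells were called into regions with MACS, per the file headers, which name 1 library for each list. Per the submitters' processing notes, coordinates follow hg19. Which MACS version, threshold, background library and aligner were used is not given in the sources used here. Each deposited region carries a score of the peak caller whose scale is not stated. A break set by the caller ends a row, so row width is a property of the calls as well as of the mark.

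Rows were kept as deposited, and coordinates are counted from 1. Members are autosomal rows with an end minus start of at least 3000 bp. Domains join rows over gaps of up to 3000 bp. Overlap means at least 1 shared bp. A chromosome's far end is taken as the last base in a region of any used list. The longest empty stretch is the longest interval of a chromosome, counted from its first base, that holds no region of either list. Intervals are Wilson 95% intervals from scipy 1.17.1. Where no row touched CHD5, the share given as allowed is not a Wilson limit. It is 3 divided by the number of rows, as a percentage. Interval routines were tested on simulated data against bedtools 2.31.1 and matched it. Python 3.11.15, numpy 2.4.6, pandas 2.3.3 and matplotlib 3.10.9 were used.

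The members, classes and rules were chosen with earlier results of these data known. Named regions are the 20 widest rows, the 10 with the highest score, the 10 with the most bases in CHD5, the 10 domains with the most members and the 3 rows on either side of the limit. A sequence or gene annotation of the build was not used here, so positions carry no gene names, and gene overlap and base composition were not analysed here. Alternatives covered the width limit, the score, the overlap that counts, the joining gap, the end window and the chromosomes.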

Additional observations from a re-analysis of the deposited data

How the results depend on the processing

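Of 64 alternatives over 11 results, 31 stayed within the counting interval of the value or within 1.5 times a count. For the share of bases inside CHD5, that interval treated single bases as independent, although they lie in few rows. It was therefore too narrow, and every alternative for that share fell outside it, even 1.77% against 1.80%. Of all, 15 were chosen after the data were seen, those on the longest empty stretch, on short gaps and on leaving out chromosomes 7, 1, 17 and 2 together. The number of wide rows was 991, 293 and 168 at limits of 2500, 4000 and 5000 bp, 372 without chromosome 7, and 1321 and 3468 with rows first joined over gaps up to 50 and 200 bp. The share touching CHD5 was 3.47% both for overlaps of at least 50% of the peak and for peak midpoints inside the row, 1.32% for CHD5 peaks scoring at or above the median, and 2.93% without chromosomes 7, 1, 17 and 2. The share of bases inside CHD5 was 1.77%, 1.92% and 1.21% at limits of 2500, 4000 and 5000 bp, 0.436% for the higher-scoring CHD5 peaks, 1.89%, 1.58% and 1.86% without chromosomes 7, 1 and 4, 2.02% without rows near the longest empty stretch, and 0.914% without chromosomes 7, 1, 17 and 2.

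Near chromosome ends lay 4.62% of wide rows at 2 Mb, 28.9% at 10 Mb and 6.72% at 5 Mb without chromosome 7. The excess over all rows, 4.20 percentage points at 5 Mb, was 0.197 at 2 Mb and 7.59 at 10 Mb, and turned to -5.28 without chromosome 7, which held 70 of the 95 rows there. Near the longest empty stretch lay 18.8% at 2 Mb and 39.8% without chromosome 7, where the excess was 25.2 percentage points. At a joining gap of 1 kb 8.11% of wide rows were at a domain's edge, and at 10 kb 1.49%. The median share of the domain taken by a wide row was 12.1%, 4.48% and 2.60% at gaps of 1, 5 and 10 kb. For changes not set by the alternative's own construction, the cause was not tested. No paired analysis was possible because each group has 1 library. Leaving out a replicate was not possible for the same reason. Depth is unknown, so what it limits could not be measured.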

Other observations

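Chromosome X was outside the rule. It held 29 rows of at least 3 kb among 16604, or 0.175%, with a median width of 4017 bp. The widest lay from 61707918 to 61717704, spanned 9.79 kb and scored 693. None of the 29 overlapped a CHD5 peak, which allows a share of up to 10.3%.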
